A study of Mus musculus with 14 samples.

Results

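A list of 39 genes of the liver's sinusoidal endothelium and of blood vessel growth was followed in tumour-free liver tissue of mice with and without the transporter gene Mdr2 and the cytokine gene Il6. The genes were listed by symbol, under a rule that sets no threshold on measured values, though with earlier results of these data known, and each was represented by its brightest array probe that maps to a single gene. Of the 39 genes, 38 were measured, out of 19938 genes tested; Angptl2, a secreted angiopoietin-like protein, was represented by no such probe. All mice were female and 14 months old. The wild type group had 3 arrays from C57BL/6 mice, the Mdr2-KO group 5 arrays from mice lacking Mdr2, and the Mdr2-KO/IL6-KO group 6 arrays from mice lacking both Mdr2 and the gene for interleukin 6, so the Mdr2 deletion was shared by both knockout groups. The labels give the C57BL/6 strain for the wild type alone, and no group lacking Il6 only was profiled. RNA of whole liver tissue was measured on an Affymetrix mouse gene array, and all values below are log2 levels or log2 differences. The labels do not say that each array came from a different mouse, and every p-value here rests on how far arrays of a group differ, which may be technical.

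Liver sinusoids are capillaries lined by a fenestrated endothelium that has no continuous basement membrane. These cells clear waste molecules from blood through scavenger and lectin receptors, and they send Wnt and R-spondin signals that keep hepatocytes near the central vein in their metabolic state. Their growth and identity depend on vascular endothelial growth factor (VEGF), angiopoietin and Notch signalling, and in chronic liver injury they can lose fenestrae and take on features of ordinary capillaries, among them CD34 on their surface. Mdr2, now named Abcb4, encodes the hepatocyte transporter that moves phospholipid into bile, and mice without it develop chronic bile duct injury and later liver tumours. Interleukin 6 is an inflammatory cytokine that acts on hepatocytes and on endothelium.

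The knockout labels were checked first. Abcb4 had a mean level of 10.36 ± 0.03 (SD, n = 3) on wild type arrays, 9.01 ± 0.19 (n = 5) on Mdr2-KO arrays and 9.05 ± 0.20 (n = 6) in Mdr2-KO/IL6-KO, differences of -1.36 and -1.32 from wild type. Il6 lay under the background level on every array of all 3 groups, so its probe does not check the second deletion. Background was set at 5.48, which 95% of 1027 olfactory receptor genes did not reach. Abcb4 stayed above it on every knockout array, so its probe showed a lower level but not an absent transcript. Array medians over all 35557 probes lay between 6.15 and 6.24. Of the 38 members, 36 had a mean above background in every group, and Pgf and Angpt1 had means under it in all 3 groups. Stab2, Clec4g, Fcgr2b, Pecam1, Kdr and Cdh5, which define sinusoidal or all endothelium, were all well above background, with group means between 7.64 and 10.32. Arrays are numbered within a group in accession order. Of the 5 Mdr2-KO arrays, array 3 gave the lowest value for 18 of the 38 members, and of the 3 wild type arrays, array 3 gave the highest for 22.

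Of the 38 genes, 11 changed past the threshold in some comparison, and they went in both directions. Relative to wild type, Cd34, Stab1 and Vegfc rose and Robo4 and Gpr182 fell in both knockouts; these 2 comparisons share the wild type arrays. Cdh5, Tek and Rspo3 fell in Mdr2-KO. Nrp1 fell and Notch1 rose in Mdr2-KO/IL6-KO. Against wild type, 8 members passed the test in Mdr2-KO (3 higher, 5 lower; limma, Benjamini-Hochberg adjusted p under 0.05), which is 21.1% of the 38 beside 21.0% of all genes tested (8.89% higher, 12.1% lower). In Mdr2-KO/IL6-KO 7 passed (4 higher, 3 lower), or 18.4% beside 12.3% of all genes (6.96% higher, 5.33% lower). Between the knockouts only Cldn5 passed, or 2.63% of members beside 8.76% of all genes (5.04% higher, 3.72% lower). The members' share in Mdr2-KO was thus near that of all genes. The arrays of Mdr2-KO and wild type did not overlap for 8 members (2 higher, 6 lower), or 21.1% beside 23.5% of all genes (10.3% higher, 13.2% lower). Those of Mdr2-KO/IL6-KO and wild type did not overlap for 6 (4 higher, 2 lower), or 15.8% beside 15.1% (8.57% higher, 6.56% lower), and those of the knockouts overlapped for every member, while 7.34% of all genes did not overlap (4.40% higher, 2.94% lower). The other 27 members passed in no comparison.

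The directions were uneven in Mdr2-KO. The median difference from wild type over the 38 members was -0.11, beside -0.07 over all genes tested, and 31 of 38 differences were below 0 (81.6%, beside 63.1% of all genes). In Mdr2-KO/IL6-KO the median was -0.09 beside -0.02, with 24 of 38 below 0 (63.2% beside 54.8%). Between the knockouts the median was 0.08 beside 0.06, with 11 of 38 below 0 (28.9% beside 34.3%). The differences that did not pass lay between -0.39 and 0.21 in Mdr2-KO and between -0.76 and 0.23 in Mdr2-KO/IL6-KO, with 95% intervals that reached a median of 0.22 and 0.21 to either side. The calls were sensitive to single arrays: without 1 array the Mdr2-KO count lay between 4 and 8, with 5 calls when wild type array 2, 4 when wild type array 3 and 5 when array 1 or 5 of Mdr2-KO was left out. The Mdr2-KO/IL6-KO count lay between 3 and 7, with 3 calls without wild type array 2 and 4 when wild type array 3, the first Mdr2-KO array or array 2, 4 or 5 of Mdr2-KO/IL6-KO was left out. After quantile normalization the Mdr2-KO calls were 2 higher and 7 lower, and after centring each array the Mdr2-KO/IL6-KO calls were 2 higher and 4 lower.

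**Figure D1:**
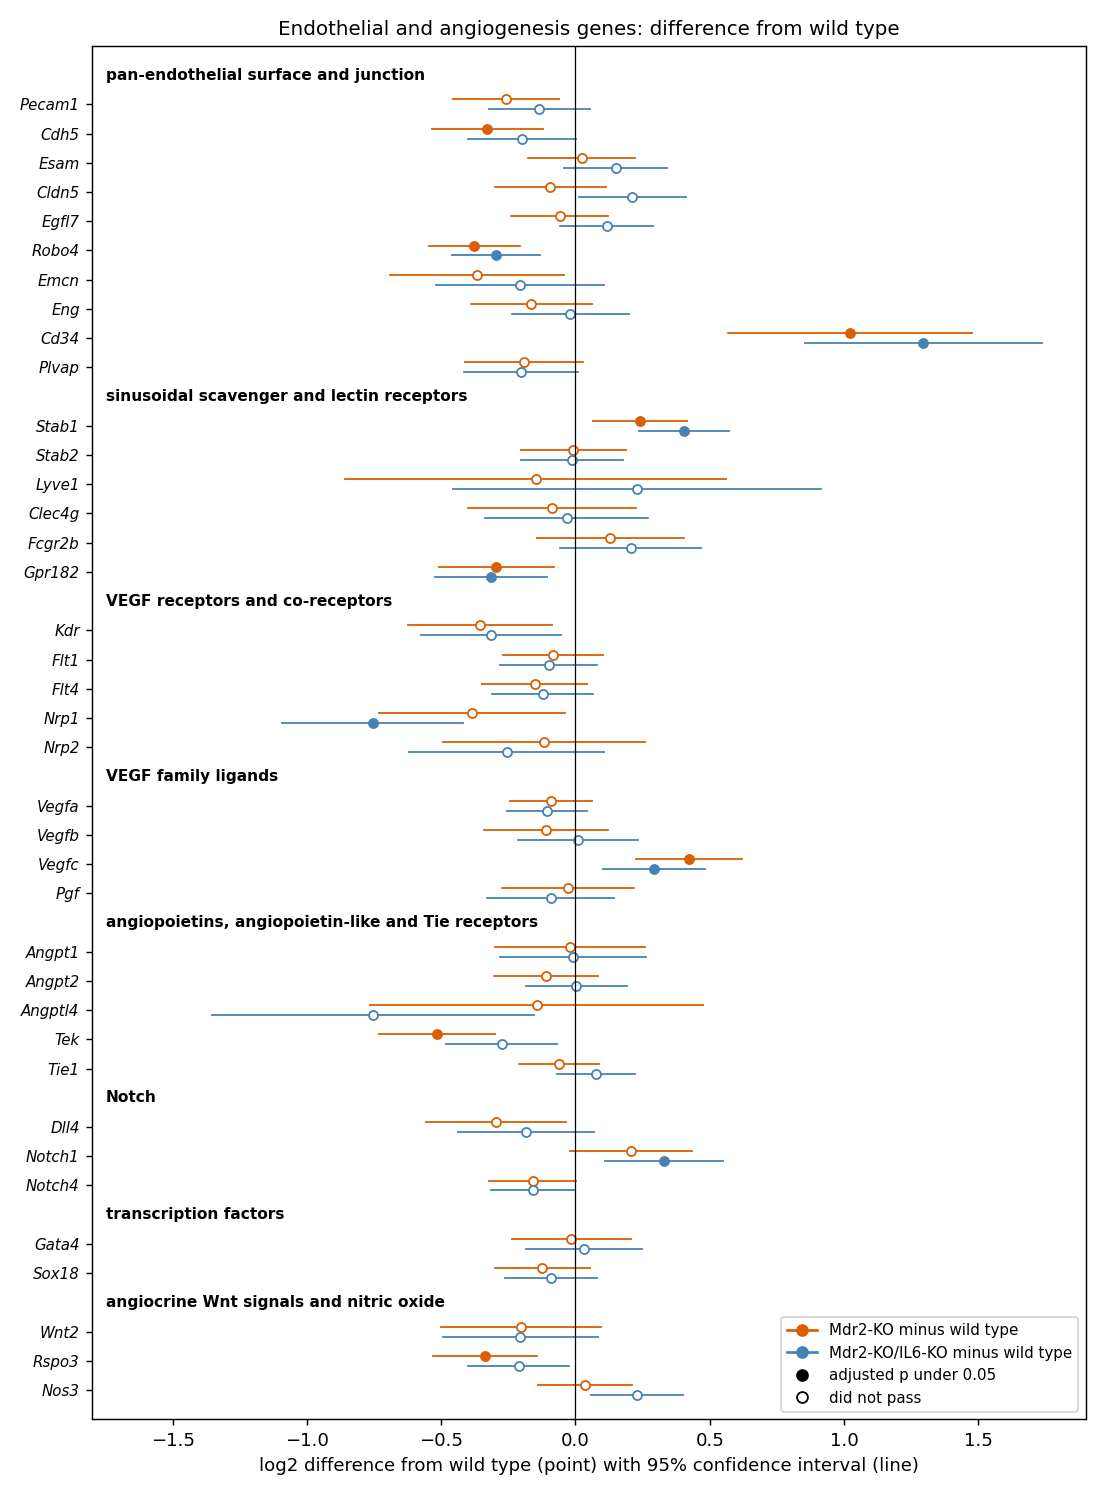
Log2 difference from wild type of the 38 measured genes in each knockout group, arranged by role, with 95% intervals as bars and filled symbols for genes that passed the test. Cd34 stands apart on the right at 1.02 and 1.30, while most symbols lie within 0.4 of 0.

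The 10 genes of the general endothelial surface and its junctions divided into 1 rise, 2 falls and 7 without a call in Mdr2-KO, and into 1 rise, 1 fall and 8 without a call in Mdr2-KO/IL6-KO. Cd34 encodes a sialomucin of capillary endothelium and blood progenitors that other cell types also carry. Its level was 6.23, 7.33 and 6.58 on the wild type arrays and 7.99, 7.60, 7.27, 7.77 and 8.05 on the Mdr2-KO arrays, and it ran from 7.72 through a median of 8.0 to 8.32 in Mdr2-KO/IL6-KO. All Mdr2-KO/IL6-KO arrays were above all wild type arrays, while Mdr2-KO array 3 lay just under wild type array 2. Cd34 rose by 1.02 (SE 0.21, 2.03-fold, adjusted p = 0.00439) in Mdr2-KO and by 1.30 (SE 0.21, 2.46-fold, adjusted p = 0.000892) in Mdr2-KO/IL6-KO. Both calls remained when any 1 array was left out (highest adjusted p 0.029 and 0.00828). The knockouts differed from each other by 0.27 (95% interval -0.10 to 0.65, adjusted p = 0.313). Portal fibroblast and myofibroblast markers also rose, 3 of 8 in Mdr2-KO (37.5%) and 4 of 8 in Mdr2-KO/IL6-KO (50%), and none fell. Of all genes, 8.89% and 6.96% passed as higher. The part of these markers in the Cd34 difference was not tested. In whole tissue, a change in the number of cells of a type and a change in RNA per cell cannot be told apart. This holds for Cd34 and for every gene below.

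Robo4, a receptor of endothelial cells that limits vessel leakage, moved the other way. It stood at 7.29, 7.51 and 7.62 in wild type and at 7.09, 7.22, 7.04, 7.08 and 7.06 in Mdr2-KO, with no overlap. In Mdr2-KO/IL6-KO it ran from 7.06 (median 7.16) to 7.29, the highest array meeting the lowest of wild type. Robo4 fell by 0.38 (SE 0.08, adjusted p = 0.0047) in Mdr2-KO and by 0.30 (SE 0.08, adjusted p = 0.0204) in Mdr2-KO/IL6-KO; the second call ended when wild type array 2 (adjusted p = 0.0708) or 3 (0.118) was left out. The 250 bases upstream of the RefSeq start of these 2 genes, which moved in opposite directions in both knockouts, are printed 5′ to 3′ on the gene's strand (GRCm38.p6, both on the plus strand; Cd34 at chr1:194938571-194938820, Robo4 at chr9:37401722-37401971). Capitals mark AGGAAG, a core that ETS family factors bind, or its reverse complement CTTCCT.

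Cd34: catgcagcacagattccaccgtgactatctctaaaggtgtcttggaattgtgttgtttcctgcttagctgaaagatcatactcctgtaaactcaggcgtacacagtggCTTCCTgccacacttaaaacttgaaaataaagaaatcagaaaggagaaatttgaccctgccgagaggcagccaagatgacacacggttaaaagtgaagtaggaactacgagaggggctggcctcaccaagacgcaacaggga

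Robo4: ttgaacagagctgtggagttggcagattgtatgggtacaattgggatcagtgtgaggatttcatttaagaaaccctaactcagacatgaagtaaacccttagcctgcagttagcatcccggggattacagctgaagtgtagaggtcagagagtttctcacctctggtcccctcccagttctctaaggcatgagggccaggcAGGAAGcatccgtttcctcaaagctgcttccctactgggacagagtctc

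Cdh5 encodes VE-cadherin, the adhesion molecule of endothelial junctions. Its level was 9.34, 9.41 and 9.40 in wild type and 9.03, 9.32, 8.88, 9.09 and 8.96 in Mdr2-KO, and all 5 Mdr2-KO arrays were under all 3 of wild type. Cdh5 fell by 0.33 (SE 0.10, adjusted p = 0.0277) in Mdr2-KO. Leaving out any of the 3 wild type arrays ended this call (adjusted p = 0.0525, 0.0603 and 0.0888 for arrays 1, 2 and 3), as did leaving out array 1 (0.0514), 3 (0.0554) or 5 (0.0519) of Mdr2-KO. In Mdr2-KO/IL6-KO Cdh5 ran from 9.03 (median 9.12) to 9.38 and overlapped wild type, with a difference of -0.20 that did not pass (adjusted p = 0.198). Pecam1, an adhesion molecule found on all endothelium, also had every Mdr2-KO array (7.60 to 7.70) under every wild type array (7.78 to 8.05), but its difference of -0.26 did not pass (adjusted p = 0.0571). It passed after quantile normalization (adjusted p = 0.0323), with dim genes left out, which left 13292 genes (0.0479), and without Mdr2-KO/IL6-KO array 3 (0.0401) or 6 (0.0472).

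Cldn5, the tight-junction claudin of endothelium, was the single member that differed between the knockouts. It stood at 6.70, 6.84, 6.73, 6.84 and 7.01 in Mdr2-KO and ran from 6.91 (median 7.15) to 7.32 in Mdr2-KO/IL6-KO, so the ranges overlapped at their ends. The difference of 0.31 (SE 0.08, 95% interval 0.13 to 0.48) had an adjusted p of 0.0301. It missed the threshold after centring each array on its median (adjusted p = 0.0524), when array 1 (0.0829), 3 (0.0741) or 4 (0.0587) of Mdr2-KO was left out, and when array 3 (0.0531), 4 (0.0659) or 5 (0.0645) of Mdr2-KO/IL6-KO was. Wild type arrays, at 6.95, 6.80 and 6.99, lay within the Mdr2-KO range, and neither knockout differed from them past the threshold (-0.09, adjusted p = 0.497; 0.21, adjusted p = 0.166). The other 5 genes of this group, Esam, Egfl7, Emcn, Eng and Plvap, passed in no comparison. Emcn, a mucin of capillaries and veins, had the lowest of their differences, -0.37 in Mdr2-KO (adjusted p = 0.0945).

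Among the 6 scavenger and lectin receptors of sinusoidal endothelium, Stab1 rose and Gpr182 fell in both knockouts, and the other 4 passed in no comparison. Stab1, a scavenger receptor that macrophages also carry, stood at 8.30, 8.33 and 8.34 in wild type and at 8.64, 8.52, 8.43, 8.57 and 8.67 in Mdr2-KO. In Mdr2-KO/IL6-KO it ran from 8.61 (median 8.69) to 8.96, and no array of either knockout overlapped wild type. Stab1 rose by 0.24 (SE 0.08, adjusted p = 0.0487) in Mdr2-KO and by 0.40 (SE 0.08, adjusted p = 0.00353) in Mdr2-KO/IL6-KO. The second call remained when any 1 array was left out (highest adjusted p 0.0205). The first remained only without Mdr2-KO array 3 (adjusted p = 0.0354) or Mdr2-KO/IL6-KO array 2 (0.0257), with 0.0512 to 0.119 without each of the other 12 arrays, and 0.0996 after quantile normalization. Of 7 markers of recruited monocytes and macrophages, 5 rose in Mdr2-KO (71.4%) and 6 with Il6 also deleted (85.7%). Of all genes, 8.89% and 6.96% passed as higher. The mean level of these markers per array was 6.98 to 7.28 in wild type, 7.77 to 8.31 in Mdr2-KO and 8.16 to 8.53 in Mdr2-KO/IL6-KO. Their part in the Stab1 difference was not tested.

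Gpr182, an atypical chemokine receptor enriched in sinusoidal endothelium, stood at 8.87, 9.23 and 9.42 in wild type and at 9.00, 8.90, 8.92, 8.75 and 8.82 in Mdr2-KO, and ran from 8.77 (median 8.85) to 8.97 in Mdr2-KO/IL6-KO. Wild type array 1 lay among the knockout arrays. Gpr182 fell by 0.29 (SE 0.10, adjusted p = 0.0487) in Mdr2-KO and by 0.31 (SE 0.10, adjusted p = 0.046) in Mdr2-KO/IL6-KO. Without wild type array 1 the adjusted p was 0.00435 and 0.0043. The Mdr2-KO call was lost without each of the other 13 arrays (adjusted p 0.0509 to 0.282), and the Mdr2-KO/IL6-KO call was otherwise kept only without Mdr2-KO array 4 (0.0492) or Mdr2-KO/IL6-KO array 1 (0.046) and lost without each of the other 11 (0.052 to 0.256). The Mdr2-KO call also missed after centring (0.0521), and the Mdr2-KO/IL6-KO call after quantile normalization (0.0512).

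The remaining receptors were measured at levels that did not separate the groups. Stab2, the hyaluronan-clearing partner of Stab1, was 8.91 ± 0.12 in wild type, 8.90 ± 0.05 in Mdr2-KO and 8.90 ± 0.17 on Mdr2-KO/IL6-KO arrays (SD, n = 3, 5 and 6). Its differences from wild type had 95% intervals of -0.20 to 0.19 and -0.20 to 0.18. Clec4g, a lectin specific to this endothelium, was 10.32 ± 0.31, 10.24 ± 0.20 and 10.29 ± 0.21 in the same order, and a second Clec4g probe lay under background in all groups. Fcgr2b, the Fc receptor that clears immune complexes, was 9.44 ± 0.20, 9.57 ± 0.26 and 9.64 ± 0.11. Lyve1, a hyaluronan receptor of sinusoidal and lymphatic endothelium, was 8.38 ± 0.61, 8.23 ± 0.35 and 8.61 ± 0.62. Its pooled SD of 0.54 was the widest of the members, so its 95% intervals reached from -0.86 to 0.56 in Mdr2-KO and from -0.46 to 0.92 in Mdr2-KO/IL6-KO.

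**Figure D2:**
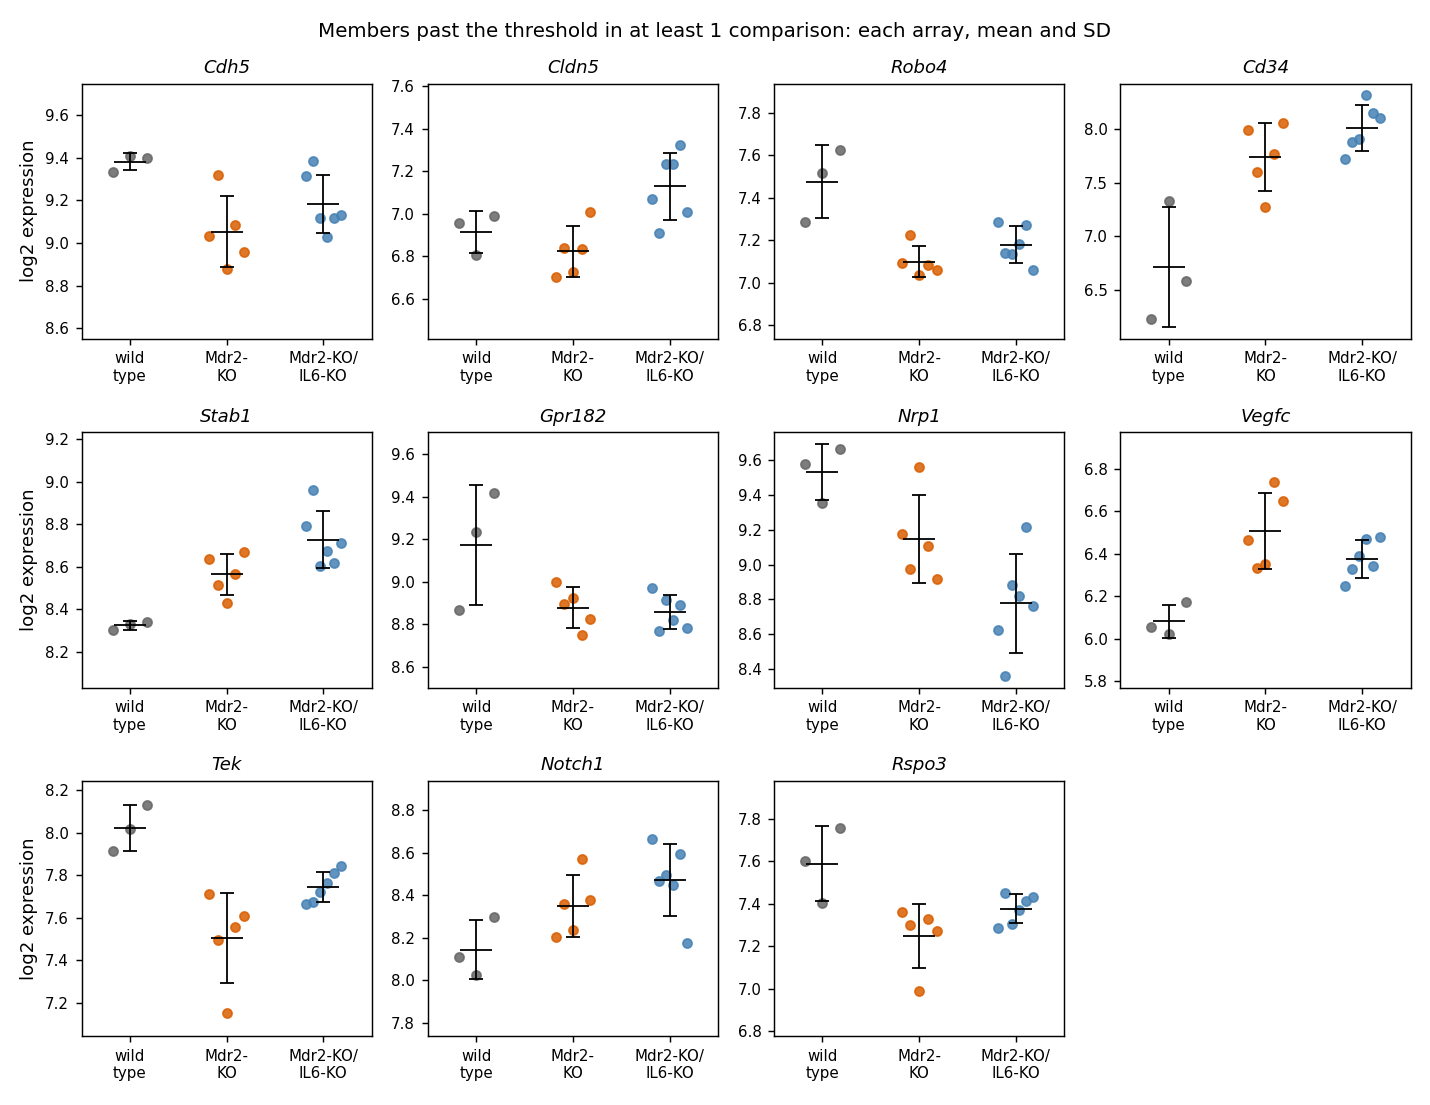
Log2 level on each of the 14 arrays for the 11 genes that passed in at least 1 comparison, with the group mean and SD. Cd34, Stab1 and Vegfc sit higher on nearly all knockout arrays than in wild type, and Robo4 and Tek sit lower.

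All 5 VEGF receptors and co-receptors had differences below 0 in both knockouts, but only Nrp1 in Mdr2-KO/IL6-KO passed. Nrp1 encodes neuropilin, a co-receptor for VEGF and semaphorins that other cell types also carry. It stood at 9.58, 9.36 and 9.66 in wild type and at 9.18, 8.98, 9.56, 9.11 and 8.92 in Mdr2-KO, where array 3 reached the wild type range. In Mdr2-KO/IL6-KO it ran from 8.36 (median 8.79) to 9.21, all under wild type. Nrp1 fell by 0.76 (SE 0.16, 1.69-fold, adjusted p = 0.00542) in Mdr2-KO/IL6-KO, and the call remained when any 1 array was left out (highest adjusted p 0.0355). In Mdr2-KO the difference was -0.39 (adjusted p = 0.0997), and without array 3 it passed (adjusted p = 0.0361). Between the knockouts Nrp1 differed by -0.37 (95% interval -0.66 to -0.08, adjusted p = 0.0913; 0.0455 without Mdr2-KO/IL6-KO array 5).

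Kdr, the main signalling receptor for VEGF-A, was 8.35 ± 0.12 in wild type, 7.99 ± 0.20 in Mdr2-KO and 8.03 ± 0.20 on Mdr2-KO/IL6-KO arrays. Its differences of -0.35 and -0.32 did not pass (adjusted p = 0.0572 and 0.111); the first passed after quantile normalization (0.0406) and without Mdr2-KO array 4 (0.0417) or Mdr2-KO/IL6-KO array 2 (0.0309). Flt4, the receptor for VEGF-C, had all Mdr2-KO arrays (7.61 to 7.75) under all wild type arrays (7.79 to 7.83), with a difference of -0.15 (adjusted p = 0.235). Flt1, a decoy receptor for VEGF-A, and Nrp2, a co-receptor for VEGF-C, had differences between -0.26 and -0.08.

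Of the 4 ligands of this family, Vegfc rose in both knockouts. Vegfc encodes the growth factor of lymphatic vessels, and its level was low, at 6.05, 6.02 and 6.17 in wild type against 6.46, 6.33, 6.35, 6.74 and 6.65 in Mdr2-KO. It ran from 6.25 (median 6.36) to 6.48 in Mdr2-KO/IL6-KO, and no array of either knockout overlapped wild type. Vegfc rose by 0.42 (SE 0.09, 1.34-fold, adjusted p = 0.00556) in Mdr2-KO, a call kept when any 1 array was left out (highest adjusted p 0.0238). It rose by 0.29 (SE 0.09, adjusted p = 0.0436) in Mdr2-KO/IL6-KO. That call missed the threshold after centring (adjusted p = 0.0681). It remained when array 2 (0.0392), 3 (0.0379), 4 (0.0268) or 5 (0.0439) of Mdr2-KO or array 1 of Mdr2-KO/IL6-KO (0.0386) was left out, and was lost without each of the other 9 arrays (0.0551 to 0.135). Vegfa, the principal ligand of Kdr, was 9.67 ± 0.15, 9.58 ± 0.08 and 9.56 ± 0.04 (n = 3, 5 and 6), with 95% intervals of its differences of -0.24 to 0.06 and -0.25 to 0.04. Vegfb and the dim Pgf passed in no comparison. Of 3 lymphatic endothelial markers measured, Pdpn rose, by 0.69 and 0.86 (adjusted p = 0.0532 in Mdr2-KO without wild type array 2). The mean of these markers per array was 6.61 to 6.82 in wild type, 6.94 to 7.56 in Mdr2-KO and 6.86 to 7.40 in Mdr2-KO/IL6-KO, and its part in the Vegfc difference was not tested.

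Among the 5 measured angiopoietins, angiopoietin-like proteins and Tie receptors, Tek fell in Mdr2-KO and nothing else passed. Tek encodes Tie2, the receptor through which angiopoietins keep vessels quiescent. It stood at 7.92, 8.02 and 8.13 in wild type and at 7.71, 7.50, 7.15, 7.56 and 7.61 in Mdr2-KO, and ran from 7.67 (median 7.74) to 7.84 in Mdr2-KO/IL6-KO. Every knockout array was under every wild type array. Tek fell by 0.52 (SE 0.10, 1.43-fold, adjusted p = 0.00286) in Mdr2-KO, a call kept when any 1 array was left out (highest adjusted p 0.0204). In Mdr2-KO/IL6-KO the difference was -0.28 (SE 0.10, adjusted p = 0.0812), which passed after centring (0.0312), with only these 2 groups in the fit (0.0305) and without Mdr2-KO array 3 (0.0176). The knockouts differed in Tek by 0.24 (adjusted p = 0.0781), so a difference between them was not shown. The related receptor Tie1 was 7.31 ± 0.07, 7.25 ± 0.11 and 7.39 ± 0.06. The ligands were dim: Angpt1, the activating ligand of Tek, lay under background, and Angpt2, its context-dependent antagonist, had group means of 5.59, 5.48 and 5.59 beside the background of 5.48. Angptl4, a secreted inhibitor of lipoprotein lipase, varied widely between arrays, from 8.55 to 9.23 in wild type, 8.21 to 9.54 in Mdr2-KO and 7.65 to 8.90 in Mdr2-KO/IL6-KO. Its difference of -0.76 (SE 0.28) in Mdr2-KO/IL6-KO did not pass (adjusted p = 0.0971; 0.0309 without Mdr2-KO/IL6-KO array 1).

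The upstream stretches of Tek, which fell in Mdr2-KO, and of Vegfc, which rose in both knockouts, are printed in the same way (both on the plus strand; Tek at chr4:94739039-94739288, Vegfc at chr8:54077282-54077531). In Tek the capitals mark ATTGTT, the reverse complement of the SOX family core AACAAT, and in Vegfc none of the motifs searched was found.

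Tek: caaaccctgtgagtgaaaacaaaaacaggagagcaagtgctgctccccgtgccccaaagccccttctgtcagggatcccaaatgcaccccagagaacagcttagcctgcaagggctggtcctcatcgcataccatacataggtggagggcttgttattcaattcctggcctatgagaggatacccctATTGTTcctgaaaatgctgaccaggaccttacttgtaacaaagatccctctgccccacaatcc

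Vegfc: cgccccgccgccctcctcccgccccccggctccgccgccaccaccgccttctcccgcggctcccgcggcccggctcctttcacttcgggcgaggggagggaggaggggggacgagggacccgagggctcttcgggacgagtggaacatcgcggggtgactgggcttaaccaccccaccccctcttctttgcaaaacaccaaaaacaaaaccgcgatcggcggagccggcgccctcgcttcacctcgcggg

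RefSeq promoters were matched for 25 of the 38 genes, with 29 start sites, and were read over 250 bases upstream on both strands. AGGAAG occurred in 13 of these 29 promoters, of 12 genes (44.8%, beside 29.5% of 32851 promoters of the same length). Of these genes Cd34, Robo4, Stab1 and Nrp1 passed in some comparison. Clec4g, Egfl7, Emcn, Eng, Flt1, Notch4, Stab2 and Tie1 have the motif and passed in none. Tek, Vegfc, Notch1 and Cldn5 passed in some comparison without it. The longer ETS motif CCGGAAG, which overlaps AGGAAG in letters but holds no copy of it, occurred in none of the 29, beside 6.91% of all promoters. AACAAT occurred in the promoters of Emcn and Tek (6.90% beside 9.42%). The GATA motif AGATAA and the hypoxia motif ACGTG each occurred in 1 promoter, upstream of different Vegfa start sites (3.45%, beside 9.99% and 16.6%). AGATAA lay in chr17:46032378-46032627 and ACGTG in chr17:46025164-46025413. The RBPJ motif TGGGAA occurred in 5 promoters of 4 genes (17.2% beside 21.6%). These are matches of letters, not binding sites.

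Of the 3 Notch members, Notch1, a receptor present on many cell types, rose in Mdr2-KO/IL6-KO. It stood at 8.11, 8.03 and 8.30 in wild type and at 8.20, 8.36, 8.24, 8.57 and 8.38 in Mdr2-KO, and ran from 8.17 (median 8.48) to 8.67 in Mdr2-KO/IL6-KO, overlapping wild type in both. The difference was 0.33 (SE 0.10, adjusted p = 0.0489) in Mdr2-KO/IL6-KO and 0.21 (adjusted p = 0.169) in Mdr2-KO. The call remained only without wild type array 3 (adjusted p = 0.0451), Mdr2-KO array 4 (0.0394) or Mdr2-KO/IL6-KO array 6 (0.0113), with 0.0506 to 0.173 without each of the other 11, and missed after quantile normalization (0.0637) and centring (0.0749). Notch4, a receptor largely of endothelium, and Dll4, the Notch ligand of sprouting tip cells, had differences from -0.30 to -0.16, none of which passed. The transcription factors Gata4, which specifies sinusoidal endothelium, and Sox18 passed in no comparison, with differences between -0.12 and 0.03 from wild type.

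Among the endothelial signals to neighbouring cells, Rspo3 fell in Mdr2-KO. Rspo3 encodes an R-spondin made by central vein and sinusoidal endothelium that strengthens Wnt signalling in hepatocytes. It stood at 7.60, 7.41 and 7.76 in wild type and at 7.36, 7.30, 6.99, 7.33 and 7.27 in Mdr2-KO, without overlap, and ran from 7.29 (median 7.39) to 7.45 in Mdr2-KO/IL6-KO. Rspo3 fell by 0.34 (SE 0.09, adjusted p = 0.018) in Mdr2-KO, a call that ended when wild type array 1 (adjusted p = 0.0525) or 3 (0.109) was left out. In Mdr2-KO/IL6-KO its difference was -0.21 (adjusted p = 0.14). Wnt2, the Wnt ligand of the same endothelium, had differences of -0.20 and -0.21 that did not pass (adjusted p = 0.303 and 0.393). Nos3, the endothelial nitric oxide synthase, had every Mdr2-KO/IL6-KO array (6.81 to 7.20) above every wild type array (6.73 to 6.79), but its difference of 0.23 did not pass (adjusted p = 0.0765; 0.0459 without Mdr2-KO/IL6-KO array 3).

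Target genes of Wnt and R-spondin in pericentral hepatocytes were set beside these values. Of 13 measured, 3 fell in Mdr2-KO and 2 with Il6 also deleted, and none rose. These shares, 23.1% and 15.4%, are near the 21.0% and 12.3% of all genes that passed in either direction. They are above the 12.1% and 5.33% of all genes that passed as lower. Lgr5, a receptor for R-spondins, fell by 0.96 and 1.09, and leaving out wild type array 1 (adjusted p = 0.0573) or 3 (0.12) ended the first call, and wild type array 3 (0.072) the second. Rnf43, a ubiquitin ligase that removes Wnt receptors, fell by 0.73 in Mdr2-KO (adjusted p = 0.0507 when wild type array 3 was left out), and the secreted protein Lect2 fell by 0.64. The glutamate transporter Slc1a2 fell by 0.85 in Mdr2-KO/IL6-KO (adjusted p = 0.119 and 0.109 when wild type array 1 or 3 was left out). Axin2, a general Wnt target, and Glul, glutamine synthetase of pericentral hepatocytes, did not pass, with differences of -0.02 and 0.15 in Mdr2-KO and 0.09 and -0.03 in Mdr2-KO/IL6-KO.

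**Figure D3:**
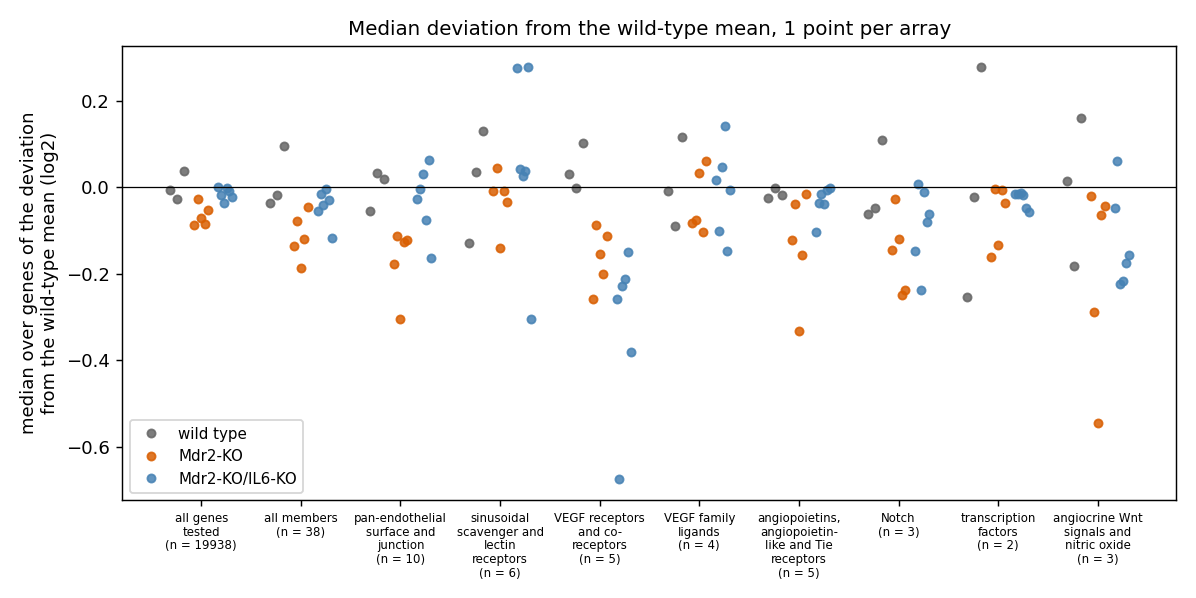
Median deviation from the wild type mean on each array, for all genes tested, all 38 members and each role. Over all members the Mdr2-KO arrays lie between -0.19 and -0.04 and the Mdr2-KO/IL6-KO arrays between -0.12 and -0.01, and the VEGF receptors reach -0.68 on Mdr2-KO/IL6-KO array 2.

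Array by array, the members as a whole moved little. The median deviation of the 38 members from the wild type mean lay between -0.04 and 0.10 on the wild type arrays. It lay between -0.19 and -0.04 in Mdr2-KO and between -0.12 and -0.01 in Mdr2-KO/IL6-KO. That of all genes tested lay between -0.09 and -0.03 in Mdr2-KO and between -0.04 and 0.0007 in Mdr2-KO/IL6-KO. Mdr2-KO array 3 was lowest, with 31 of 38 members under the wild type mean. For the VEGF receptors the median lay between -0.26 and -0.09 in Mdr2-KO and between -0.68 and -0.15 in Mdr2-KO/IL6-KO. For the sinusoidal scavenger and lectin receptors it lay between -0.14 and 0.04, and between -0.30 and 0.28. The spread within groups was of ordinary size, with a median pooled SD of 0.14 over members beside 0.13 over all genes tested.

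Related genes outside the list were followed in 6 pathway lists with 85 of 90 genes measured. In Mdr2-KO 7 rose and 13 fell (23.5%), in Mdr2-KO/IL6-KO 9 rose and 8 fell (20%), and between the knockouts 4 were higher in Mdr2-KO/IL6-KO (4.71%), beside the shares of all genes given above. Of 13 other sinusoidal genes, 2 rose and 2 fell in Mdr2-KO (30.8%), and 2 rose and 1 fell with Il6 also deleted (23.1%). The shares of all genes were 21.0% and 12.3%. Adam23 rose by 0.57 in Mdr2-KO and 0.69 with Il6 also deleted, and the iron-regulating ligand Bmp6 by 0.50 and 0.81. Coagulation factor gene F8, expressed by this endothelium, fell by 0.45 in Mdr2-KO and 0.38 with Il6 also deleted. The Bmp6 call in Mdr2-KO ended when wild type array 1 (adjusted p = 0.151) or array 1 (0.0522) or 4 (0.062) of Mdr2-KO was left out, and that of F8 was lost without wild type array 3 (0.0644) in Mdr2-KO and without 5 of 14 arrays (0.0507 to 0.138) in Mdr2-KO/IL6-KO. Of 14 genes of large vessels and activated endothelium, 2 rose in Mdr2-KO (14.3%) and 3 with Il6 also deleted (21.4%), and none fell. These shares stand beside the same 21.0% and 12.3% of all genes. Cav1, the coat protein of caveolae, rose by 0.67 and 0.69, Vwf, the von Willebrand factor, by 0.46 and 0.48, and Thbd, thrombomodulin, by 0.50 in Mdr2-KO/IL6-KO. Each of these calls was lost without 6 to 10 of the 14 arrays, at adjusted p between 0.0516 and 0.176.

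Of 17 other VEGF, angiopoietin and angiogenesis genes, 4 fell in Mdr2-KO and none rose (23.5%), while 2 rose and 3 fell in Mdr2-KO/IL6-KO (29.4%). The shares of all genes were 21.0% and 12.3%. Angptl6 fell by 0.66 and 0.62, and Hif1a, the oxygen-regulated transcription factor, by 0.32 and 0.38. Thbs1, an inhibitor of vessel growth, rose by 0.79 in Mdr2-KO/IL6-KO, and so did the endothelial receptor Cd93, by 0.66. Mmrn2, a matrix protein of vessel walls that binds Cd93, fell by 0.66 in Mdr2-KO (SE 0.09, adjusted p = 0.000277) and differed from wild type by -0.18 in Mdr2-KO/IL6-KO (adjusted p = 0.23). Between the knockouts Mmrn2 was higher in Mdr2-KO/IL6-KO by 0.48 (SE 0.08, adjusted p = 0.0024), and Cd93 by 0.37 (adjusted p = 0.0417). All these calls remained without any 1 array except that of Cd93 between the knockouts, which was lost without 9 of 14 (0.0574 to 0.0972).

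Of 14 other Notch pathway genes, 2 rose and 1 fell in each knockout (21.4%, beside 21.0% and 12.3% of all genes). Jag1, a Notch ligand that bile duct cells and vessels carry, rose by 0.54 and 0.83, and Notch2 by 0.36 and 0.46. Lfng, a glycosyltransferase that modifies Notch receptors, fell by 0.53 and 0.39. Between the knockouts the Notch targets Hey1 and Heyl were higher in Mdr2-KO/IL6-KO, by 0.40 and 0.21. Calls were lost for Jag1 in Mdr2-KO without 7 of 14 arrays (adjusted p 0.0538 to 0.148) and for Lfng in Mdr2-KO/IL6-KO without wild type array 2 (0.0553). Between the knockouts they were lost for Hey1 without Mdr2-KO array 1 (0.0517) and for Heyl without 7 of 14 (0.0552 to 0.101). Of 14 endothelial transcription factors, 1 rose and 3 fell in Mdr2-KO (28.6% beside 21.0%). In Mdr2-KO/IL6-KO 1 fell and none rose (7.14% beside 12.3%). Sox7 fell by 0.44 and 0.34, and Lmo2 rose by 0.29 and Gata2 fell by 0.25 in Mdr2-KO. Calls were lost for Sox7 in Mdr2-KO/IL6-KO when wild type array 1 (adjusted p = 0.0666) or 3 (0.0787) was left out, for Lmo2 likewise with wild type array 3 (0.159) or array 1 of Mdr2-KO (0.0547), and for Gata2 without 5 of 14 (0.0558 to 0.198).

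**Figure D4:**
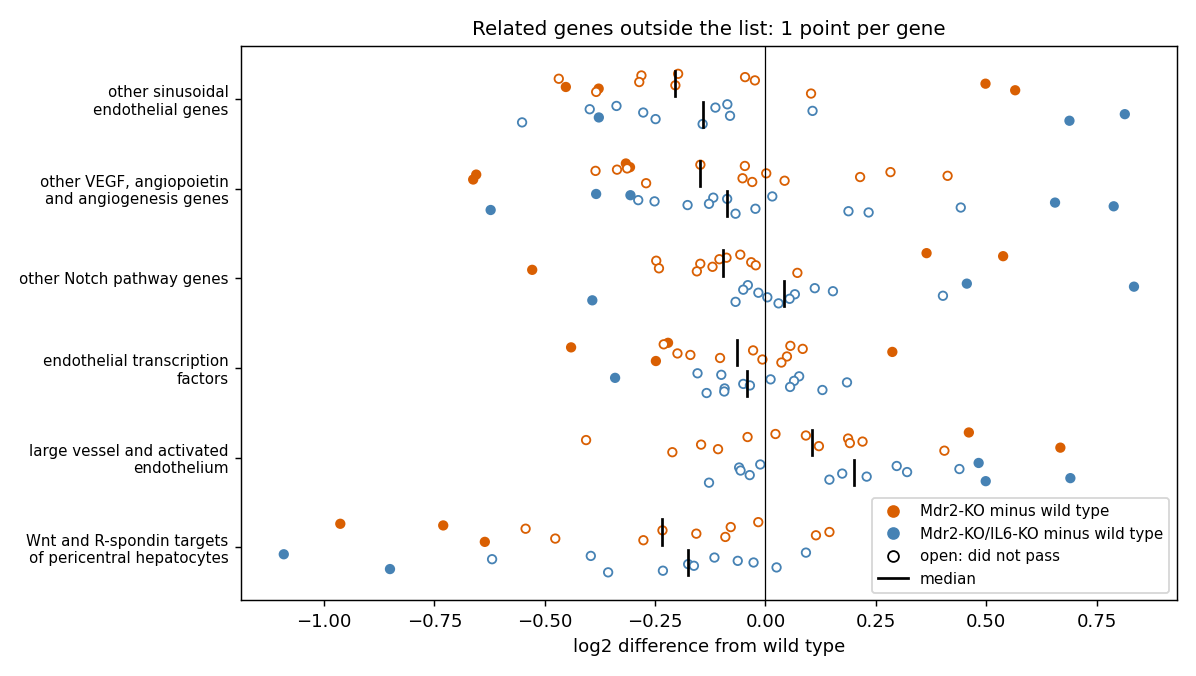
Log2 difference from wild type of the genes of the related pathway lists in Mdr2-KO and Mdr2-KO/IL6-KO, with 1 row per list, filled symbols for genes that passed and short bars for list medians. Most symbols lie near 0, and Lgr5 (bottom row) lies farthest to the left, at -0.96 and -1.09.

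Markers of other cell types differed in how far they moved. Of all genes, 21.0% passed in Mdr2-KO (8.89% higher, 12.1% lower) and 12.3% in Mdr2-KO/IL6-KO (6.96% higher, 5.33% lower). Of 8 bile duct cell markers measured, 4 rose in Mdr2-KO (50%) and 5 with Il6 also deleted (62.5%). Their mean level per array was 6.06 to 6.64 in wild type, 6.96 to 7.70 in Mdr2-KO and 6.97 to 7.77 in Mdr2-KO/IL6-KO. In wild type, 2 of these markers had a mean under background. Of 8 portal fibroblast and myofibroblast markers, 3 and 4 rose (37.5% and 50%). Their mean levels were 6.86 to 7.04, 7.10 to 8.08 and 7.20 to 8.06 in the same order of groups. Lum, a collagen-binding proteoglycan, rose by 2.10 and 1.89. Of 8 stellate cell markers 1 rose and 2 fell in each knockout (37.5%). Of 5 smooth muscle markers 1 rose in each (20%), and in every group 2 had means under background. Of 7 Kupffer cell markers 1 fell in each (14.3%), and in every group 1 had a mean under background. Of 4 platelet markers 3 fell in Mdr2-KO, while 1 rose and 2 fell in Mdr2-KO/IL6-KO (75% in each). Of 8 hepatocyte markers 1 fell in Mdr2-KO (12.5%) and none passed in Mdr2-KO/IL6-KO. Their mean level per array lay between 12.07 and 12.38 over all 14 arrays. None of 4 mesothelial markers passed. The part of these cell types in the endothelial differences was not tested.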

How the data were processed

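Liver RNA of 14 arrays was measured. The deposited unit is log2 intensity. Per the submitters' processing notes, the authors used Partek and RMA, which corrects background, normalises between arrays and summarises probes. Versions, build and filters were not given in the sources used. Such scaling is meant to make array distributions alike, so values show changes relative to other genes. Array medians still ranged from 6.15 to 6.24, and quantile normalization and centring moved the counts of genes that passed. Per the labels' protocols, snap-frozen tissue was lysed in Trizol and its RNA DNase-treated. The labels name no batch.

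Of 35557 probes, 21789 map to 1 gene in the array annotation (21698 matched by gene identifier), 1621 to several and 12147 to none. Each gene took its probe of highest mean (999 genes had a choice). All 19938 genes were fitted with limma 3.58.1 in R 4.3.3 (3 group means, empirical Bayes) and adjusted by Benjamini-Hochberg over all of them at 0.05, with no filter; 29.0% have a mean under the background level. Python 3.11.15 was used for summaries. The arrays' number limits precision. On simulated data with 19938 genes, 69%, 74% and 74% of changes of 0.5 and 98%, 97% and 98% of changes of 1 were recovered in the order Mdr2-KO and Mdr2-KO/IL6-KO against wild type, then between the knockouts. The simulation changed 100 genes by each size under independent normal noise, far fewer genes than passed in the data. Most member differences were smaller than 0.5, and recovery at those sizes was not simulated.

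Members and lists were chosen with earlier results of these data known. Every member is accounted for; members that passed are described in full, those that passed in none by range or, where they define the endothelium or came near a threshold, by their values. From related pathway lists up to 3 genes that passed with the largest differences were named; Axin2, Glul, Pdpn and Lum were chosen after their values were seen. Promoters are RefSeq's (GRCm38.p6). Alternatives were another normalization, centring, a filter on dim genes, probe means, another moderation, 2-group fits and arrays left out.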

Additional observations from a re-analysis of the deposited data

Results flagged for a closer look

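Among 76 sets of 1 gene in 1 knockout group, 4 held an array far from the others, and chance at 1 in 20 gives 3.8. Clec4g, Fcgr2b and Rspo3 each had their lowest Mdr2-KO value on array 3. Clec4g was 9.90 there (the other 4 arrays 10.26 to 10.39), Fcgr2b was 9.11 (9.62 to 9.74) and Rspo3 was 6.99 (7.27 to 7.36). Esam, a junction protein, was highest on Mdr2-KO array 2, at 7.15 (the others 6.92 to 6.98). With Mdr2-KO array 3 and wild type array 2 left out together, 6 of 38 members passed in Mdr2-KO, 5 in Mdr2-KO/IL6-KO and 0 between the knockouts.

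Cldn5 was marked because the knockouts differed in it by a test of the difference itself, at 0.31 (limma, adjusted p = 0.0301).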

How the results depend on the processing

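No member changed direction past the threshold under any of the 21 alternatives. Members that passed numbered 8 in Mdr2-KO, 5 with only the 2 groups compared in the fit and 4 to 8 when 1 array was left out; 7 in Mdr2-KO/IL6-KO, 3 to 7 when 1 array was left out; and 1 between the knockouts, 0 after centring, 0 with wild type array 2 and Mdr2-KO array 3 left out together and 0 to 2 when 1 array was left out. Over all genes the counts were 4189 (2140 to 4507 when 1 array was left out), 2450 (1635 to 2544) and 1746 (754 to 2164; 970 without both named arrays). The genes called between the knockouts numbered 754, 932 and 999 without Mdr2-KO array 1, 3 or 4 and 1055 and 1045 without Mdr2-KO/IL6-KO array 4 or 5; 2140 in Mdr2-KO is without wild type array 3. Centring turned the split of higher and lower genes from 1388 and 1062 to 1006 and 1573 for Mdr2-KO/IL6-KO set against wild type, and from 1005 and 741 to 424 and 1056 between the knockouts. With only the 2 groups compared, Stab1 (adjusted p = 0.0593), Gpr182 (0.109) and Rspo3 (0.0578) missed in Mdr2-KO, and Gpr182 (0.0865) and Notch1 (0.0692) in Mdr2-KO/IL6-KO. The cause of these changes was not tested. Signal near background limits Pgf, Angpt1 and Angpt2. No paired analysis was possible because the labels give no replicate numbers shared between groups.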
